A study of Mus musculus with 6 samples.

Results

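The miR-221 and miR-222 cluster was followed through small RNA libraries of mouse liver. Its members were taken by name, as every entry of the deposited table beginning with mmu-miR-221- or mmu-miR-222-, whichever arm of the hairpin it came from. This gave 4 entries of 1039 in all, namely mmu-miR-221-3p, mmu-miR-221-5p, mmu-miR-222-3p and mmu-miR-222-5p. The mice were wild type ICR animals, an outbred stock, aged 30 weeks, and each library came from the liver of a single mouse. Every mouse ate a high-fat diet (HFD) from the start. After 12 weeks the 3 mice of the J group were given JTXK granule, a compound of Chinese herbs, by gavage for 8 weeks, while the 3 mice of the M group (the diabetic model) were given sterile water. No mice on a standard diet were sequenced among these 6 libraries, so the comparison concerns the granule on top of the diet and not the diet itself.

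MicroRNAs are short RNAs cut from hairpin precursors, and each hairpin can release a 5p arm and a 3p arm. Bases 2 to 8 of the mature miRNA, the seed, pair with target mRNAs and lower their output. miR-221 and miR-222 are made from neighbouring hairpins, and their 3p arms are the usual guide strands. They are known as repressors of the cell cycle inhibitor Cdkn1b, of the receptor tyrosine kinase Kit and of the metalloproteinase inhibitor Timp3. In liver they have been linked to the activation of hepatic stellate cells, to fibrosis, to steatosis and to hepatocellular carcinoma.

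Both hairpins lie on the minus strand of chromosome X. In the GRCm38.p6 assembly of RefSeq, Mir222 spans 19146893 to 19146971 (79 bases) and Mir221 spans 19146294 to 19146388 (95 bases), with 504 bases between them. No other gene of the GENCODE M21 annotation overlaps the cluster, and the nearest one, the noncoding Gm14636, lies 10010 bases away on the same strand. Of the 4 members, 3 have a mature sequence in the RefSeq table. They are shown here because the seeds separate the arms into groups, and the seed of each is in capitals.
mmu-miR-221-3p: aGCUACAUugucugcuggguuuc
mmu-miR-222-3p: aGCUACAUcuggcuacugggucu
mmu-miR-221-5p: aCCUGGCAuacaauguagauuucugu

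The 3p arms therefore share the seed GCUACAU. Laid side by side from the 5′ end, they are identical over their first 8 bases and at 11 of 23 positions in all, so their reads can be told apart. mmu-miR-221-3p occupies bases 60 to 82 of its hairpin and mmu-miR-222-3p bases 49 to 71. mmu-miR-221-5p, at bases 20 to 45 of its hairpin, has the seed CCUGGCA, which no other mature miRNA of the RefSeq table carries. One further mouse miRNA has the seed of the 3p arms, mmu-miR-1928, and it has no entry in these data.

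The letters that pair with the 3p seed, ATGTAGC, were looked for on the sense strand of the longest 3′ untranslated region of each protein-coding gene in GENCODE M21 (GRCm38). They were found in 9.46% of 20999 such regions. The 3 targets named above were taken as examples of what the seed pairs with, and the match is in capitals.
Cdkn1b: aaaagcattggATGTAGCattgcgcaatt
Kit, site 1: atgggagatatATGTAGCaagactagaaa
Kit, site 2: taaatattgaaATGTAGCaataatgtctt
Timp3: taaaatcatttATGTAGCtgagacacttt

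The stretch of Cdkn1b lies at chr6:134924420-134924448, those of Kit at chr5:75654981-75655009 and chr5:75656512-75656540, and that of Timp3 at chr10:86348274-86348302, all on the plus strand. Long regions hold the letters more often. Among regions within 20% of the same length a match was present in 22.2% for Cdkn1b, in 15.2% for Kit and in 23.4% for Timp3. These are matches of letters only, and mRNA was not measured in these libraries.

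The table gives RPM, the reads of a miRNA per 1000000 miRNA reads of its library. Whole reads could be recovered from it, and there were 2626353 to 4314134 miRNA reads per library. The labelled tissue was checked by miRNAs typical of hepatocytes, of which 4 of 4 were listed, and together they took 391439 to 450361 RPM of each library. M group replicate 1 stood apart: its mean correlation with the other 5 libraries, on log2(RPM + 1) over the 548 miRNAs tested, was 0.937, against 0.969 to 0.974 for each of the others. It was also the only library whose deposited label has a prefix unlike the rest of its group, and the meaning of the prefix is not stated. The comparisons of the members and of the marker lists are therefore also given without M group replicate 1.

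The guide strands were moderately abundant. By mean level over the 6 libraries, mmu-miR-221-3p ranked at place 78 of the 1039 entries and mmu-miR-222-3p at place 140. The 5p arms were rarer, with mmu-miR-221-5p at place 232 and mmu-miR-222-5p at place 367. All 4 had a mean above 1 RPM in a group and so were among the 548 miRNAs compared. In the order of levels, mmu-miR-455-3p stood just above mmu-miR-221-3p and mmu-miR-30e-3p just below it. For mmu-miR-222-3p the neighbours were mmu-miR-141-3p and mmu-miR-541-5p. Those of mmu-miR-221-5p were mmu-miR-16-1-3p and mmu-miR-17-3p, and those of mmu-miR-222-5p were mmu-miR-486a-3p and mmu-miR-1291. The range over the libraries overlapped with the member's own range for all 8 neighbours. Sequences are ligated and amplified with unequal efficiency, which RPM does not correct, so levels of different miRNAs are compared only roughly.

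The most abundant member, mmu-miR-221-3p, had 389, 463 and 332 RPM in J group replicates 1, 2 and 3. In M group replicates 1, 2 and 3 it had 308, 448 and 456 RPM. The groups overlapped, with the highest library in the J group and the lowest in the M group. Means were 395 ± 65.6 RPM (SD, n = 3) for J and 404 ± 83.4 RPM (SD, n = 3) for M, so the spread within each group was far wider than the gap between them. These values rest on 808 to 1960 reads per library. Counting error was small beside the spread, since the 95% Wilson interval for M group replicate 1 reached from 287 to 330 RPM and that for J group replicate 2 from 441 to 486 RPM. Intervals here cover counting error only, because reads copied by PCR from 1 molecule count as separate reads.

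The guide strand of the other hairpin, mmu-miR-222-3p, had 98.0, 112 and 81.6 RPM in J group replicates 1, 2 and 3. The M group replicates had 98.6, 107 and 96.1 RPM. Here the highest and the lowest library both belonged to the J group, and the M libraries lay between them. The group means were 97.2 ± 15.2 RPM (SD, n = 3) and 100.5 ± 5.53 RPM (SD, n = 3). With 229 to 423 reads per library this member had the lowest coefficient of variation over the 6 libraries, 10.5%. It was 16.9% for mmu-miR-221-3p, 21.4% for mmu-miR-222-5p and 28.0% for mmu-miR-221-5p. Counting error was not removed from these coefficients, and it is larger for members with fewer reads.

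The strand opposite the guide, mmu-miR-221-5p, was the member whose group means differed most as a ratio. It had 12.3, 15.6 and 14.3 RPM in J group replicates 1, 2 and 3, from 53, 56 and 40 reads. In the M group replicates it had 21.3, 25.8 and 17.5 RPM, from 56, 88 and 75 reads. All J libraries lay below all M libraries, with means of 14.1 ± 1.68 RPM (SD, n = 3) and 21.5 ± 4.17 RPM (SD, n = 3). The gap was narrow at its closest point: the interval of the highest J library, 12.0 to 20.3 RPM, overlapped that of the lowest M library, 13.9 to 21.9 RPM. Of the 548 miRNAs compared, 9.31% had all J libraries below all M libraries, and 1 of the 4 members did.

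The rarest member was mmu-miR-222-5p. In J group replicates 1, 2 and 3 its 23, 11 and 14 reads correspond to 5.33, 3.07 and 4.99 RPM. For the M group replicates, 9, 13 and 19 reads correspond to 3.43, 3.81 and 4.42 RPM. The M libraries fell inside the range of the J libraries. The lowest and the highest of the 6 values were both in the J group, and their 95% intervals, 1.71 to 5.50 RPM and 3.55 to 8.00 RPM, overlapped, so differences between libraries were not detectable at this depth.

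**Figure D1:**
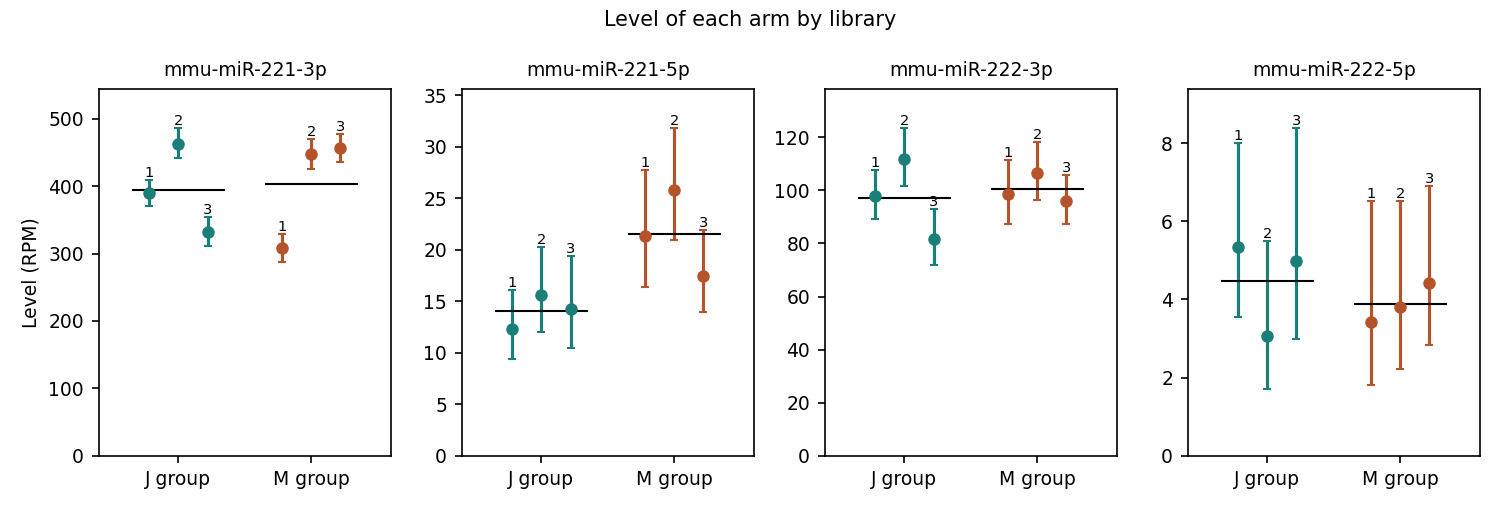
Level in RPM of each arm in every library (points, numbered by replicate) with 95% Wilson counting intervals (bars) and group means (black lines), J group in green and M group in brown. The J and M libraries are apart only for mmu-miR-221-5p, at 12.3 to 15.6 RPM against 17.5 to 25.8 RPM.

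The J group was then compared with the M group to learn whether the granule was accompanied by a change in the cluster. The comparison used limma, a linear model with variances moderated across miRNAs, on log2(RPM + 1), which makes the change of a rare miRNA look smaller. A miRNA was called where its log2 fold change exceeded 0.3 in size and its unadjusted p was below 0.05. These thresholds follow the study's methods, which name no test for the sequencing, so limma was a choice made here. Limma called none of the 4 members, while it called 29 of the 548 miRNAs compared (5.29%). No miRNA had a Benjamini-Hochberg adjusted p under 0.05 in limma, and 29 had an unadjusted p under 0.05. On the recovered reads, edgeR gave 0 and DESeq2 gave 2 miRNAs an adjusted p under 0.05, and neither called a member.

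The level of mmu-miR-221-3p differed by -0.02 on the log2 scale between the J group and the M group (standard error 0.24, limma adjusted p = 0.98). The 95% interval of that difference reached from -0.59 to 0.55, so a change of up to about this size in either direction was not detectable. The corresponding value of mmu-miR-222-3p was -0.06 (standard error 0.22, adjusted p = 0.94), with an interval of -0.58 to 0.47. The sign of both depended on the scaling of the libraries. After median-of-ratios scaling they were 0.084 and 0.048, and after quantile normalization 0.32 and 0.25, none of them called. When M group replicate 1 was left out, mmu-miR-221-3p stood at -0.21 and mmu-miR-222-3p at -0.07, neither of them called.

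For mmu-miR-221-5p the log2 fold change was -0.57 (standard error 0.27, limma adjusted p = 0.71), with a 95% interval of -1.21 to 0.07. Its unadjusted p in limma, from the model fitted across all miRNAs, was 0.0717. The mean level in the J group was 0.653 of that in the M group. It thus passed the threshold of size and missed that of the p-value. A linear model without moderation, tried after the values were seen, gave it an unadjusted p of 0.0453 on RPM (adjusted p = 0.74) and of 0.0349 on log2(RPM + 1) (adjusted p = 0.76), and so called it under both. Of all 548 miRNAs, that model called 27 on RPM and 32 on log2(RPM + 1). An exact two-sided permutation test on RPM gave p = 0.1, the smallest that 3 libraries against 3 allow.

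For mmu-miR-222-5p the sign was the opposite, at 0.14 (standard error 0.31, limma adjusted p = 0.88) and an interval of -0.60 to 0.88, and it was 0.07 without M group replicate 1. The median log2 fold change of the 4 members was -0.04, beside -0.13 over all 548 miRNAs. Quantile normalization moved the median over all miRNAs to 0.075. Relative to the median of its own setting, mmu-miR-221-5p was at -0.44 as RPM, at -0.43 with median-of-ratios scaling and at -0.47 with quantile normalization, while mmu-miR-221-3p was at 0.11, 0.12 and 0.24 in the same order.

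**Figure D2:**
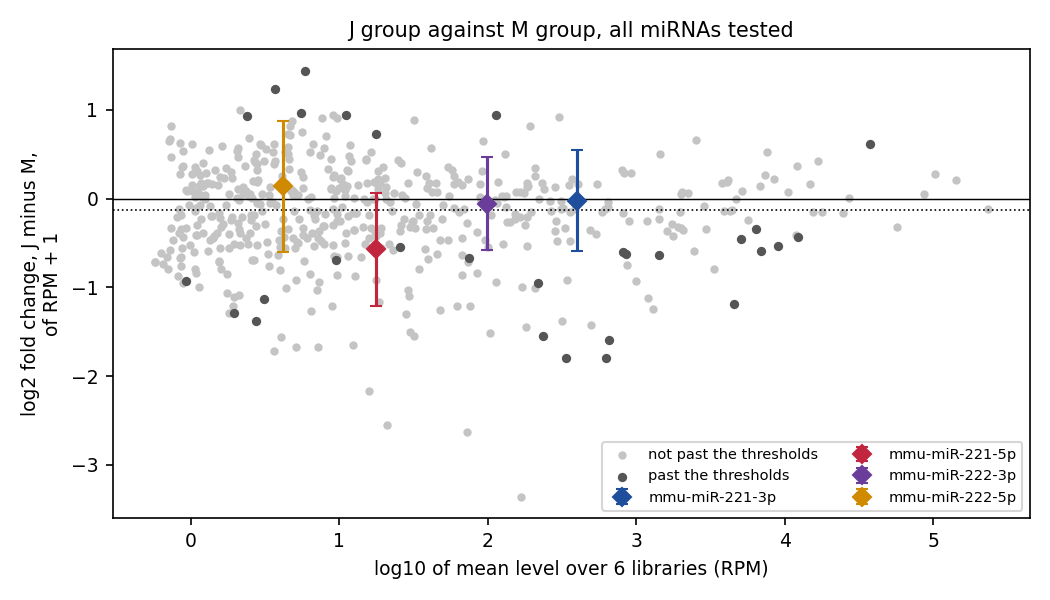
Log2 fold change (J minus M, on RPM + 1) against the mean level over 6 libraries (log10 RPM) for the 548 miRNAs compared, with those past the thresholds in dark grey, the median of all miRNAs as a dotted line, and the 4 members as diamonds with limma's 95% intervals. The 3p arms lie at -0.02 and -0.06, mmu-miR-221-5p at -0.57 and mmu-miR-222-5p at 0.14, and each interval includes 0.

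Because both arms of a hairpin are read in the same library, their ratio does not depend on how libraries are scaled. In the miR-221 hairpin the 5p arm made up 3.06%, 3.27% and 4.12% of the reads of both arms in J group replicates 1, 2 and 3. In the M group replicates it made up 6.48%, 5.45% and 3.69%. The M group replicates 1 and 2 were above all J libraries, but M group replicate 3 was below J group replicate 3. The 95% Wilson intervals of M group replicate 1, at 5.02% to 8.32%, and of J group replicate 1, at 2.35% to 3.98%, did not overlap.

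The mean share of the miR-221 5p arm was 3.48 ± 0.560% (SD, n = 3) for J and 5.21 ± 1.41% (SD, n = 3) for M. For each 5p read there were 23.3 to 31.7 reads of the 3p arm in the J libraries, against 14.4 to 26.1 in the M libraries. The log2 ratio of the 3p to the 5p arm was 0.58 higher in the J group, and single pairs of libraries ranged from -0.17 to 1.14 (exact two-sided permutation test, p = 0.2). Without M group replicate 1 it was 0.39 (exact permutation test, p = 0.3).

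In the miR-222 hairpin the 5p arm made up 5.16%, 2.67% and 5.76% of the total in J group replicates 1, 2 and 3, and 3.36%, 3.45% and 4.40% in the M group replicates. All 3 M libraries lay within the range of the J libraries. The log2 ratio of the 3p to the 5p arm differed by -0.23 (J minus M), with single pairs of libraries from -0.82 to 0.75 (exact two-sided permutation test, p = 0.6). Without J group replicate 2 it was -0.58 and without J group replicate 3 it was -0.0043, so its size rested on these libraries. It was -0.15 without M group replicate 1. The hairpins thus differed in sign, and whether their arm ratios changed differently was not tested.

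Arm ratios were also compared across all 129 mouse hairpins with both arms among the miRNAs compared, by limma, a fit added after the values were seen. It called 10 hairpins (7.75%), and neither miR-221 nor miR-222 was among them. On log2(RPM + 1), the ratio of miR-221 differed by 0.55 (standard error 0.34, limma adjusted p = 0.62) and that of miR-222 by -0.20 (standard error 0.35, adjusted p = 0.88), beside a median of 0.05 over the hairpins. No hairpin had an adjusted p under 0.05 in this limma fit, and 10 had an unadjusted p under 0.05. Over all 6 libraries the minor arm took 4.26% of miR-221 and 4.05% of miR-222. The median over the 129 hairpins was 6.25%, and 57 hairpins had a smaller minor arm than miR-221.

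**Figure D3:**
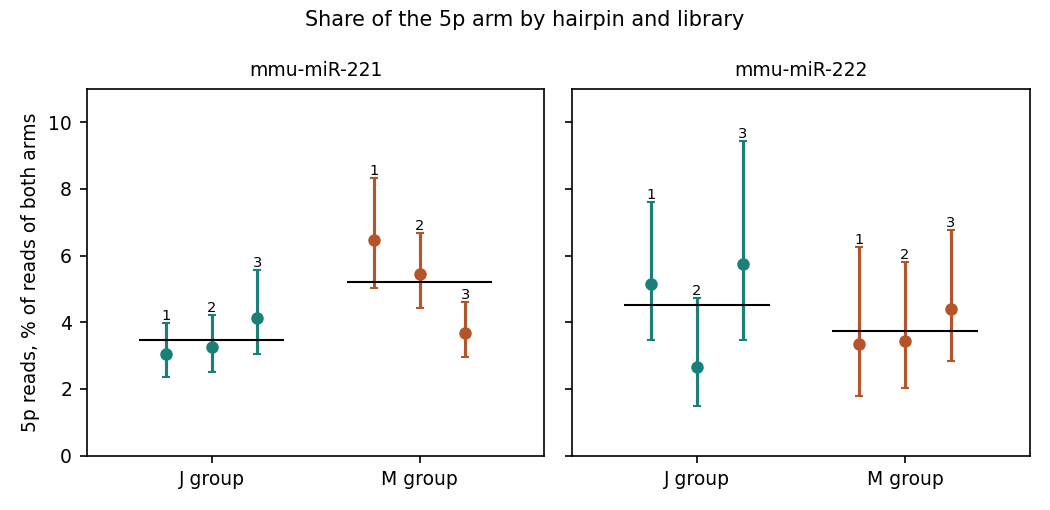
Share of the 5p arm in the reads of both arms (percent) for each hairpin in every library, numbered by replicate, with 95% Wilson intervals (bars) and group means (black lines). For miR-221 the J libraries lie at 3.06% to 4.12% and the M libraries at 3.69% to 6.48%, while for miR-222 the M libraries lie within the J range.

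The hairpins were set against each other next. For 1 read of mmu-miR-222-3p there were 3.97, 4.14 and 4.07 of mmu-miR-221-3p in J group replicates 1, 2 and 3. In the M group replicates there were 3.12, 4.20 and 4.75. The ratio was nearly the same in the 3 J libraries and spread widely in the M group, on both sides of the J values. Mean log2 ratios were 2.02 ± 0.03 (SD, n = 3) for J and 1.99 ± 0.31 (SD, n = 3) for M, and the difference of 0.04 between means was smaller than the spread (exact two-sided permutation test, p = 1). Without M group replicate 1, which had the lowest ratio, the difference was -0.14, so its sign rested on that library. All J libraries then lay below the remaining M libraries, and the exact permutation test gave p = 0.1, the smallest these libraries allow. The difference between the spreads was not tested.

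Summed over the 4 members, the cluster had 505, 594 and 433 RPM in J group replicates 1, 2 and 3 and 431, 584 and 574 RPM in the M group replicates. The lowest library was in the M group and the highest in the J group. The sum was 511 ± 80.4 RPM (SD, n = 3) for J and 529.8 ± 85.7 RPM (SD, n = 3) for M, a difference of -19.1 RPM, smaller than either spread (exact two-sided permutation test, p = 1). Leaving out M group replicate 1 gave a difference of -68.5 RPM (exact permutation test, p = 0.4).

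Members were also followed across the 6 libraries, on log2(RPM + 1). The guide strands mmu-miR-221-3p and mmu-miR-222-3p had a Pearson's r of 0.62 (exact permutation p = 0.188, adjusted over 3 relations 0.281) and a Spearman's rho of 0.43 (exact permutation p = 0.419, adjusted 0.629). Leaving out the 2 libraries farthest from the median of mmu-miR-221-3p gave r = 0.49, and leaving out M group replicate 1 alone gave r = 0.87. The arms of miR-221 had an r of 0.09 (exact permutation p = 0.867, adjusted 0.867) and a rho of 0.03 (exact permutation p = 1, adjusted 1), and r was 0.59 without the 2 farthest libraries. The arms of miR-222 had an r of -0.71 (exact permutation p = 0.104, adjusted 0.281) and a rho of -0.77 (exact permutation p = 0.103, adjusted 0.308), which became r = -0.39 without the 2 farthest libraries. None of the 3 relations passed the test, and the last rests on 9 to 23 reads of mmu-miR-222-5p.

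For a description of likeness, each guide strand was correlated over the 6 libraries with the other 305 mouse miRNAs that had at least 10 reads in every library. The closest to mmu-miR-221-3p were mmu-miR-378a-5p (r = 0.94), mmu-miR-1968-5p (r = 0.93) and mmu-miR-872-3p (r = 0.93). In that order mmu-miR-222-3p stood at place 37. The closest to mmu-miR-222-3p were mmu-miR-802-5p (r = 0.89), mmu-miR-503-3p (r = 0.88) and mmu-miR-28a-5p (r = 0.87), with mmu-miR-221-3p at place 12. All these values share the same 6 libraries and their depth. The miRNAs named as closest have the highest r among 305 over only 6 libraries, where high values can arise without a relation. None of these values was tested.

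Other miRNAs linked to liver fibrosis and steatosis were taken from a list of 18, of which 17 were among those compared. In limma 2 of the 17 were called, both lower in the J group, and 0 were called higher, where 3.83% of all 548 miRNAs compared were called lower. They were mmu-miR-199a-5p and mmu-miR-214-3p, both abundant in stellate cells. The median log2 fold change of the list was -0.18, beside -0.13 over all 548 miRNAs. Over the 19 alternative settings, 0 to 2 of the list were called lower and 0 to 1 higher, and the median ranged from -0.33 to -0.05. After quantile normalization 0 were called, and 1 was called lower with either other pseudocount, with no filter, with the replicate block, with median-of-ratios scaling, by edgeR and by DESeq2. Leaving out J group replicate 1 or 2 or M group replicate 2 or 3 also left 1 called lower. Without J group replicate 2 there was 1 called higher, beside 7 of all 548 miRNAs. With M group replicate 1 left out, 2 of the list were called lower and its median was -0.18.

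Liver tissue holds several cell types, and in bulk RNA fewer cells of a type cannot be told from less RNA per cell. Of 7 leukocyte miRNAs, all compared, 2 were called lower in the J group, namely mmu-miR-342-3p and mmu-miR-146a-5p, beside 3.83% of all miRNAs. The other 5 were not called. The fold changes of all 7 were below 0, as was that of mmu-miR-221-5p, with a median of -1.12 beside -0.13 over all 548 miRNAs. Without M group replicate 1, 1 was called lower, 6 of 7 were below 0 and the median was -0.50, while 4 were called lower without M group replicate 2 and 3 without J group replicate 3. Of all 548 miRNAs, 22 were called lower without M group replicate 1, 38 without M group replicate 2 and 32 without J group replicate 3. Over all 19 alternatives 1 to 4 of the 7 leukocyte miRNAs were called lower, 6 or 7 were below 0 and the median ranged from -1.56 to -0.50. Both linear models without moderation called 1, and quantile normalization gave a median of -0.74 with 6 below 0, as many as without J group replicate 1. Their summed level was 1016, 988 and 1370 RPM in J group replicates 1, 2 and 3 and 6579, 2306 and 1768 RPM in the M group replicates, so the sums did not overlap between groups, as in 9.31% of single miRNAs in this direction, and M group replicate 1 was by far the highest. Of 4 miRNAs compared from a list for stellate cells and fibroblasts, 3 were called lower in the J group, beside the same 3.83%. Among them, mmu-miR-199a-5p and mmu-miR-214-3p are those already counted in the fibrosis list. The other was mmu-miR-145a-5p, which like mmu-miR-143-3p of the same list is also typical of smooth muscle. From which cells these miRNAs came was not tested. The median of the 4 was -0.51 (-0.54 without M group replicate 1), and their sum was 12582 to 16890 RPM in the J libraries against 16765 to 25242 RPM in the M libraries. Most of this sum was mmu-miR-143-3p and mmu-miR-145a-5p, with J means of 10128 and 4270 RPM and M means of 13772 and 5897 RPM. The J and M means of mmu-miR-199a-5p were 675 and 1040 RPM, and those of mmu-miR-214-3p 20.5 and 30.6 RPM. All 4 were below 0 in each of the 19 alternatives, with medians of -0.59 to -0.40 and 0 to 3 called. With quantile normalization 0 were called. The calls fell to 1 with median-of-ratios scaling, by edgeR and by DESeq2, and also without J group replicate 2 or without M group replicate 3, and to 2 without J group replicate 1, J group replicate 3 or M group replicate 2, with either other pseudocount, with no filter and in the linear model without moderation on RPM. Every miRNA compared from the leukocyte and stellate lists was above 0 in all 6 libraries, and the part of these cells in the level of mmu-miR-221-5p was not tested. The log2 fold change of mmu-miR-221-5p was -0.57 without M group replicate 1 (limma adjusted p = 0.83), the same as with it.

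The 5 miRNAs of bile duct epithelium were also all below 0, with a median log2 fold change of -0.68, and limma on all 6 libraries called none of them. The linear models without moderation, which called mmu-miR-221-5p, called 1 of these 5 lower, mmu-miR-200c-3p. Of all 548 miRNAs they called 22 lower on RPM and 24 lower on log2(RPM + 1). The median of the 5 was -0.24 without M group replicate 1. It was -1.17 without M group replicate 3, where limma called 2 of the 5 lower, and -1.002 without J group replicate 3, where it called 1. Of all 548 miRNAs, limma called 29 lower without M group replicate 3 and 32 without J group replicate 3, beside 21 on all 6 libraries. With quantile normalization the median of the 5 was -0.44 and without J group replicate 1 it was -0.45. In these 2 settings, with median-of-ratios scaling and by edgeR and DESeq2, 4 of the 5 were below 0, and in the other alternatives all 5 were. Their sum was 950.1 to 2379 RPM in the J libraries and 1203 to 4298 RPM in the M libraries, so the groups overlapped. The part of these cells in the level of mmu-miR-221-5p was not tested either.

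Limma on all 6 libraries called none of the 4 hepatocyte miRNAs, whose median was 0.03 (-0.02 without M group replicate 1). With median-of-ratios scaling and by edgeR, 1 of them was called higher in the J group, mmu-miR-192-5p, where 17 and 18 of all 548 miRNAs were. Limma called 1 of the 4 lower without J group replicate 1, where 18 of the 548 were. It called 1 higher without M group replicate 2, where 7 of the 548 were. The hepatocyte sum was 391439 to 419051 RPM for J and 391999 to 450361 RPM for M. For endothelial cells, 1 of the 2 miRNAs listed was compared, mmu-miR-126a-3p, with 4166 to 6718 RPM against 4486 to 5579 RPM, and it was not called. The 2 erythroid miRNAs compared had 4286 to 6232 RPM against 2534 to 9724 RPM, and neither was called. Without M group replicate 1 the log2 fold change of mmu-miR-126a-3p was 0.06 and the median of the erythroid miRNAs was -0.06. Over the 19 alternatives mmu-miR-126a-3p ranged from -0.10 (without J group replicate 2) to 0.28 (quantile normalization) and was called in 0 of them. The median of the hepatocyte list ranged from -0.04 to 0.13. The erythroid median ranged from -0.43 without M group replicate 2 to 0.58 without M group replicate 3. There 1 of the 2 was called higher, beside 9 of all 548 miRNAs. The J and M ranges of all these sums overlapped.

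**Figure D4:**
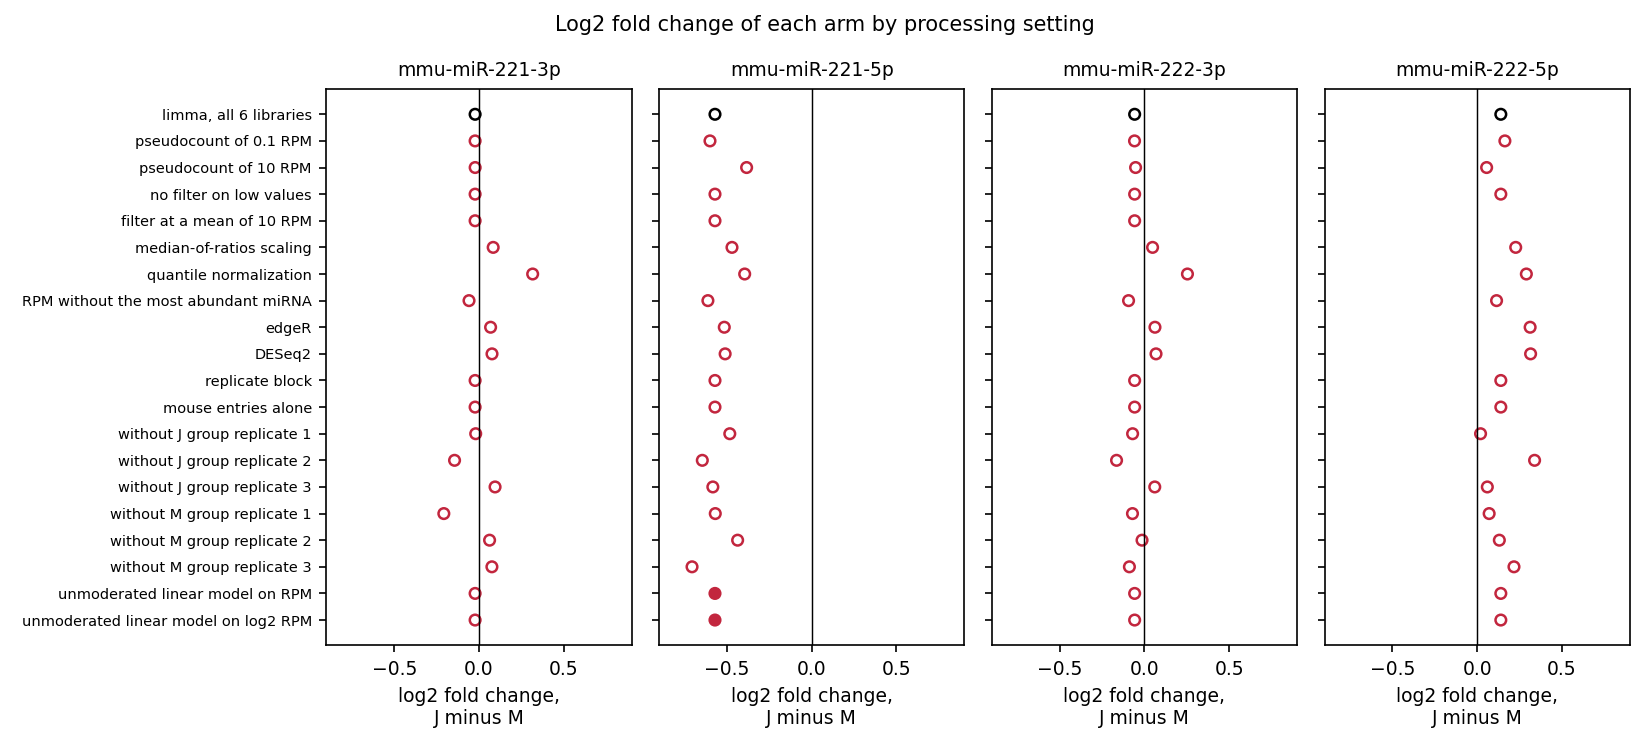
Log2 fold change (J minus M) of each member under every processing setting, with limma on all 6 libraries in black, open symbols for values not past the thresholds and filled symbols for values past them. mmu-miR-221-5p lies between -0.71 and -0.38 in all settings shown and is past the thresholds in the 2 linear models without moderation, while both 3p arms fall on either side of 0.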

How the data were processed

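Small RNA was sequenced from the livers of 3 J group and 3 M group mice, and groups follow the labels. The authors removed poor reads, matched distinct sequences to Rfam and to miRBase, and deposited RPM for known and predicted miRNAs, each library kept apart. The submitters' processing notes list mm9 among genome builds. The aligner and the handling of multi-mapped reads are not given in the sources used here. Each column sums to 1000000, and 100% of values were whole multiples of 1 read within 0.01, so reads were recovered.

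The members, lists and rules were chosen with earlier results of these data known. miRNAs with a mean above 1 RPM in a group were compared by limma 3.58.1 in R 4.3.3 (variance trend, two-sided) on log2(RPM + 1), tested on simulated data. edgeR 4.0.16 (quasi-likelihood test) called 45 miRNAs on the recovered reads and DESeq2 1.42.0 called 36. Further alternatives were other pseudocounts, filters and scalings, mouse entries alone, a replicate block and each library left out. Ratios and sums were compared by exact permutation in Python 3.11.15. Sequences and positions are from RefSeq (GRCm38.p6) and GENCODE M21, and 653 of 762 mouse names matched a mature sequence. The text names the members, their neighbours in level, the miRNAs most like the guide strands, and list members on which a result turns.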

Additional observations from a re-analysis of the deposited data

How the results depend on the processing

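All settings kept mmu-miR-221-5p lower in the J group, at -0.71 to -0.38 on the log2 scale over 19 alternatives, with adjusted p of 0.567 to 0.831. It passed the thresholds in 2 of them, the linear models without moderation on RPM and on log2(RPM + 1), which were added after the values were seen and leave the log2 fold change at -0.57. Of all 548 miRNAs, these models called 27 and 32. With a library left out mmu-miR-221-5p ranged from -0.71 to -0.44. mmu-miR-222-5p stayed higher in the J group in 18 of 18 alternatives (0.02 to 0.34) and fell below the filter when its mean was set to 10 RPM. The sign of mmu-miR-221-3p changed by edgeR (0.068), by DESeq2 (0.077), with quantile normalization (0.32) and with scaling by the median of ratios (0.084), and that of mmu-miR-222-3p likewise (0.062, 0.068, 0.25 and 0.048). With a library left out, mmu-miR-221-3p ranged from -0.21 to 0.095, changing sign without J group replicate 3, M group replicate 2 or M group replicate 3. The range for mmu-miR-222-3p was -0.16 to 0.061, changing sign without J group replicate 3. The cause was not tested.

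The arm ratio kept its direction in 10 of 10 alternatives for miR-221 (0.36 to 0.82, with a library left out 0.39 to 0.82) and for miR-222 (-0.58 to -0.0043). The log2 ratio of the guide strands ranged from -0.14 to 0.17 with a library left out, the lowest without M group replicate 1. The summed level was higher in the J group by 19.0 RPM with median-of-ratios scaling, and differed by -68.5 to 19.6 RPM with a library left out, changing sign without J group replicate 3, M group replicate 2 or M group replicate 3. The correlation of the miR-221 arms ranged from -0.26 to 0.53, being -0.09 without J group replicate 3 and -0.26 without M group replicate 2.

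The count of called miRNAs was 29, with 45 by edgeR and 21 to 45 with a library left out, the highest without M group replicate 2. It was 8 higher and 21 lower in the J group, but 17 and 13 with median-of-ratios scaling, 20 and 11 with quantile normalization and 18 and 27 by edgeR. The replicate numbers share no stated origin, and deviations of same-numbered libraries correlated at 0.05, 0.06 and -0.01. With the replicate block, limma called 27 miRNAs, and mmu-miR-221-5p stayed at -0.57 with an adjusted p of 0.72. Depth limits mmu-miR-222-5p most, at 9 to 23 reads per library.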
